A study of Mus musculus with 2 samples.

Results

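Trem2, Spp1, Gpnmb, Cd9, Fabp5, Lpl, Lgals3 and Cd63, the genes that mark scar-associated macrophages in fibrotic liver, were followed in 2 single-cell libraries. They were taken by symbol, and all 8 were found among the 32285 genes of the count matrices. The cells were liver non-parenchymal cells, the liver cells other than hepatocytes, from mice given intraperitoneal carbon tetrachloride (CCl4), a hepatotoxin that scars the liver, for 8 weeks. One library came from Mfap2+/+ (wild-type) and the other from Mfap2-/- (knockout) animals. Mfap2 encodes microfibril-associated glycoprotein-1, and both groups received CCl4, so no uninjured liver enters the comparison. The labels give neither the number, age nor sex of the animals behind a library. With 1 library per genotype there is no test between genotypes, and genotype, animal and library preparation cannot be told apart.

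Scar-associated macrophages are recruited to injured liver, line the fibrous septa and carry a lipid-handling and lysosomal programme. The same programme is described in adipose tissue and brain under the names lipid-associated macrophages and disease-associated microglia. Trem2 is the lipid-sensing surface receptor of this state, Gpnmb a lysosomal and surface glycoprotein, Spp1 (osteopontin) and Lgals3 (galectin-3) secreted ligands of matrix and glycans. Lpl hydrolyses triglyceride from lipoproteins and Fabp5 carries fatty acids inside the cell. Cd9 and Cd63 are tetraspanins, Cd9 mainly of the cell surface and Cd63 of late endosomes and lysosomes.

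RNA molecules were counted by unique molecular identifiers (UMIs), of which the wild-type library held 82499307 over 11783 barcodes and the knockout library 118226367 over 12872. After filtering, 10336 and 11428 cells remained, and 40 barcodes occurred in both libraries. Mfap2 itself had 211 UMIs in the wild-type cells kept and 2 in the knockout cells. Levels are counts of a gene per 1000000 UMIs of the cells in a group (CPM). Intervals are 95% counting intervals, and they cover counting error only.

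Macrophages were taken as cells with at least 20 UMIs of C1qa, C1qb and C1qc, which encode the complement component C1q of resident and recruited macrophages. This C1q gate held 1981 wild-type cells with a median of 11369 UMIs and 2102 knockout cells with a median of 13826.5. Macrophage genes outside the gate rule were present in it, with Csf1r at 677 and 467 CPM and Adgre1 at 392 and 285 CPM. In B cells, gated by B-cell marker genes, Csf1r stood at 51.4 and 45.3 CPM. Patrolling monocytes, gated by their own markers, held Csf1r at 662 and 581 CPM and Adgre1 at 113 and 136 CPM. Csf1r thus did not set the C1q gate apart from patrolling monocytes. B cells do not make C1q, and it took a median 0.0575% (wild type) and 0.0504% (knockout) of their UMIs.

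The C1q gate also let in a set of very deep cells with little C1q. Of its cells, 91 wild-type (4.59%) and 196 knockout cells (9.32%) had under 0.3% of their UMIs on C1q. Their medians were 45210 and 27288 UMIs per cell, and C1q took a median of 0.0545% and 0.0960% of these. Epcam, an epithelial gene, stood at 588 and 472 CPM in them, beside 8.61 and 10.6 CPM in the other cells of the gate. The cholangiocyte (bile duct cell) markers were passed by 42 of the 91 and 44 of the 196, and by 0 and 2 of the rest. Levels are therefore given for the C1q gate and for a narrower gate that also asks for at least 0.3% C1q, with 1890 wild-type and 1906 knockout cells. The narrower gate was set after these values were seen. It still held 376 wild-type (19.9%) and 462 knockout cells (24.2%) that also passed a non-myeloid or neutrophil gate, among them the endothelial gate (264 and 230 cells), whose markers include Cdh5, a gene also on the Kupffer list used here, and the neutrophil gate (133 and 238 cells). Other myeloid gates were also passed, unevenly between the libraries. Patrolling monocyte markers were passed by 203 wild-type (10.7%) and 101 knockout cells (5.30%) of the narrower gate. Markers of conventional type 1 dendritic cells were passed by 66 (3.49%) and 186 (9.76%). The part of these cells in the differences between libraries was not tested. In the C1q gate, 71 wild-type and 157 knockout cells lay between 0.2% and 0.4%, so the border at 0.3% is a cut through a range.

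Trem2 (ENSMUSG00000023992) lies on chromosome 17, from 48346401 to 48354147, and Gpnmb (ENSMUSG00000029816) on chromosome 6, from 49036546 to 49070929, both on the forward strand of GRCm38. The pair varied together from cell to cell, as shown further on, while Spp1 (ENSMUSG00000029304; chromosome 5, 104435118 to 104441050, forward strand) had most of its UMIs in other cells. Their upstream sequences are shown for that reason, from RefSeq on GRCm38.p6: the 150 bases before each annotated start, none of which lies in a GENCODE M21 exon. The windows are chr17:48346251-48346400 for Trem2, chr6:49036368-49036517 for Gpnmb and chr5:104434961-104435110 for Spp1, all on the forward strand.
Trem2: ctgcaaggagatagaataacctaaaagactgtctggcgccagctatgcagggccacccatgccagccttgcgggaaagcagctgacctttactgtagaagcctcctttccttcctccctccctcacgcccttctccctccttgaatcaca
Gpnmb: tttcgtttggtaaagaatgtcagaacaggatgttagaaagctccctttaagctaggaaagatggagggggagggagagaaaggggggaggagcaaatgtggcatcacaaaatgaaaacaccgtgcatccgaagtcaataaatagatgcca
Spp1: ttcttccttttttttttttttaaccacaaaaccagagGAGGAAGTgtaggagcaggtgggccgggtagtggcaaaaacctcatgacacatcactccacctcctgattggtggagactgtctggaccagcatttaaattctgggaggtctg
Capitals mark a match to a searched motif. RefSeq windows were matched for 6 of the 8 genes, 7 windows in all. The 250 bases before each start were searched on both strands for CACGTG (the E-box), TCACATG (an M-box, the other sequence MiT/TFE factors are known to bind), TGACTCA (AP-1) and GAGGAAGT (an ETS core of the kind PU.1 binds). No motif contains another. GAGGAAGT was found in the Spp1 window, with its first base 113 bases before the start, and it occurs in 2.44% of 32851 windows of that length. The other motifs were in none of the 7 windows, and they occur in 6.02%, 3.50% and 4.46% of all windows in the order given. A match describes these letters and is not a binding site.

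Fabp5 (ENSMUSG00000027533) lies on chromosome 3, from 10012548 to 10016607, and Lpl (ENSMUSG00000015568) on chromosome 8, from 68880491 to 68907448, both forward. Lgals3 (ENSMUSG00000050335) lies on chromosome 14, from 47367751 to 47386160, and Cd63 (ENSMUSG00000025351) on chromosome 10, from 128900989 to 128912822, both forward. Cd9 (ENSMUSG00000030342) lies on the reverse strand of chromosome 6, from 125460266 to 125494791, and Gm28809 and Gm26728 overlap it on the opposite strand. Gm42793 overlaps Spp1 on its own strand. GENCODE M21 also lists the copies Fabp5l2, Cd9-ps and Cd63-ps, so reads of Fabp5, Cd9, Cd63 and Spp1 may have been split or dropped in counting, and their levels carry that uncertainty.

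Lpl was the gene of the 8 that differed most between the libraries. In the C1q gate 11947 wild-type UMIs gave 446 CPM (438 to 454) and 7866 knockout UMIs gave 222 CPM (217 to 227), a log2 ratio (knockout over wild type) of -1.005 (-1.05 to -0.96). In the narrower gate the levels were 531 and 263 CPM (-1.01, -1.06 to -0.97). Lower Lpl in the knockout held under all 12 alternatives, with log2 ratios from -1.20 to -0.99. Lpl was also lower in B cells, which serve here as the level of free RNA: 54 UMIs gave 29.2 CPM in wild-type B cells and 57 UMIs gave 17.6 CPM in knockout B cells, a log2 ratio of -0.73 (-1.30 to -0.17).

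Gpnmb was the gene with the highest knockout-to-wild-type ratio, but the size of that ratio depended on how cells were weighted. It stood at 413 CPM (406 to 421) and 569 CPM (561 to 577) in the C1q gate, a log2 ratio of 0.46 (0.43 to 0.50), and at 494 and 726 CPM in the narrower gate (0.55, 0.52 to 0.59). When every cell was given the same weight, by thinning to 3000 UMIs or by averaging per-cell CPM, the log2 ratio in the C1q gate was 0.16. Leaving out cells that also passed the gate of another lineage gave 0.11. The richest single cell held 239 (wild type) and 449 (knockout) Gpnmb UMIs, and the 5 richest held 7.53% and 8.93% of all Gpnmb UMIs of the gate.

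Trem2 was close to equal in the libraries by summed UMIs. It stood at 426 CPM (418 to 434) and 406 CPM (400 to 413) in the C1q gate, a log2 ratio of -0.07 (-0.10 to -0.03). In the narrower gate it was 509.9 and 514 CPM (0.01, -0.02 to 0.05), so its direction turned with the gate. Fabp5 likewise stood at 599 and 588 CPM (-0.03, -0.06 to 0.00) in the C1q gate and at 651 and 690.2 CPM (0.08, 0.05 to 0.12) in the narrower gate. Both were lower in the knockout when every cell of the C1q gate had the same weight. By thinning or by averaging per-cell CPM, Trem2 was at -0.21 and -0.16, and Fabp5 at -0.18 and -0.16. Leaving out cells that also passed the gate of another lineage gave -0.26 for Trem2 and -0.28 for Fabp5.

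Lgals3 and Cd63 were lower in the knockout library in both gates, by less than 1.5-fold. Lgals3 went from 913 to 801 CPM (-0.19, -0.21 to -0.16) in the C1q gate and from 1069.6 to 938 CPM (-0.19, -0.22 to -0.16) in the narrower gate. Cd63 went from 383 to 311 CPM (-0.30, -0.34 to -0.26) and from 402 to 350.3 CPM (-0.20, -0.24 to -0.16). Their log2 ratios stayed below 0 under the 12 alternatives, from -0.40 to -0.19 for Lgals3 and from -0.54 to -0.18 for Cd63.

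Spp1 and Cd9 depended most on which cells the gate let in. Spp1 stood at 1708 CPM in the wild type and 1510.2 CPM in the knockout in the C1q gate, and at 297 and 266 CPM in the narrower gate. The cells under 0.3% C1q held 85.8% of the wild-type and 86.5% of the knockout Spp1 UMIs of the C1q gate, at 8098 and 5548 CPM. Cd9 stood at 168 and 164 CPM in the C1q gate (-0.03, -0.09 to 0.02) and at 105 and 122 CPM in the narrower gate (0.21, 0.13 to 0.29). Of its UMIs in the C1q gate, 48.8% and 43.4% came from the cells under 0.3% C1q. For Trem2 and Gpnmb this portion was 1.88% to 3.34%.

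In the C1q gate, 0 of the 8 genes were at least 1.5-fold higher in the knockout, where 9.6% of 3280 genes with a mean of at least 50 CPM were. At least 1.5-fold lower was 1 gene, Lpl, where 4.57% of those genes were. Among genes with 20 or more UMIs in all the shares were 19.6% higher and 5.04% lower. The narrower gate gave the same counts for the 8, beside 10% and 5.26% of 3021 genes, or 19.1% and 4.93% of those with 20 or more UMIs. The median log2 ratio of the 8 was -0.12 in the C1q gate and -0.07 in the narrower gate. Genes with a mean of at least 50 CPM had medians of 0.07 and 0.05, and those with 20 or more UMIs 0.15 and 0.14.

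**Figure D1:**
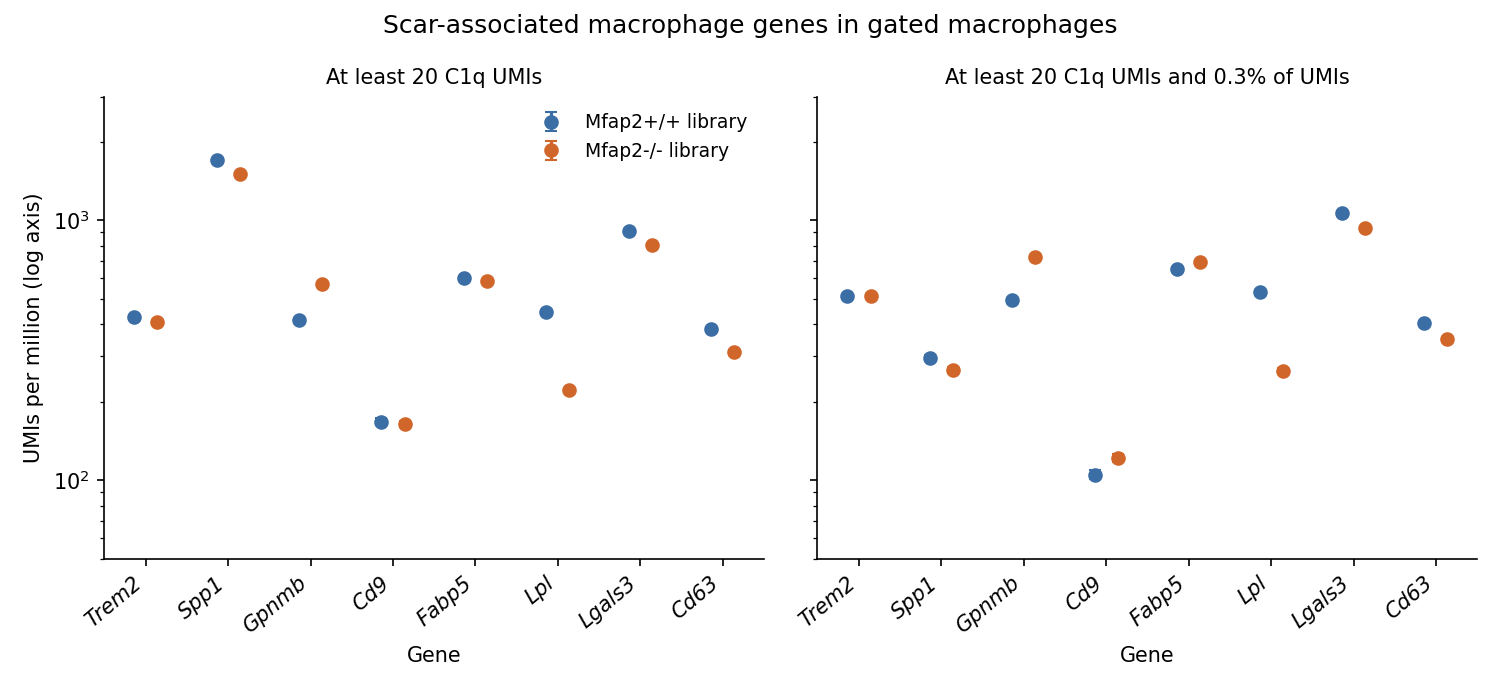
CPM (log axis) of the 8 genes in wild-type and knockout macrophages, in the C1q gate (left) and in the narrower gate that also asks for 0.3% C1q (right), 1 library per genotype. Bars are 95% Poisson counting intervals, mostly smaller than the points. Lpl is lower in the knockout library in both panels, and the Spp1 points drop from 1708 and 1510.2 to 297 and 266 between panels.

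Shares of cells with a UMI were compared after thinning each macrophage of the narrower gate to 3000 UMIs, with 63 shallower cells of the wild-type and 50 of the knockout library omitted, and were set beside B cells thinned to the same depth. Of wild-type macrophages 56.9% (54.6 to 59.2) had an Lpl UMI, and of knockout macrophages 30.7% (28.6 to 32.8), with 8.28% and 5.14% in B cells. Gpnmb was detected in 43.7% and 45.0%, with 6.75% and 7.79% in B cells. Trem2 was detected in 66.6% and 61.6%, with 12.3% and 9.95% in B cells. These 3 genes were far above the B-cell share in both libraries, and so was Cd63, whose shares follow.

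The shares were 58.9% and 49.2% for Fabp5, 82.1% and 73.1% for Lgals3, and 57.6% and 48.4% for Cd63. The B-cell shares were 28.8% and 20.7% for Fabp5, 26.7% and 22.6% for Lgals3, and 9.82% and 6.80% for Cd63. Spp1 reached 38.9% and 39.3% of macrophages, not far above 27.3% and 29.4% of B cells, and Cd9 25.0% and 24.9% beside 13.8% and 11.6%. Detection of Spp1 or Cd9 in a macrophage at this depth was thus not far above background, and the B-cell shares of Fabp5 were also large beside its macrophage shares. Thinning left out 122 wild-type and 30 knockout B cells as too shallow. The B cells had median depths of 3502.5 and 4720.0 UMIs and the narrower gate 11160 and 13493. Without thinning, the macrophage shares were 78.8% and 59.4% for Lpl, 88.6% and 89.6% for Trem2, and 64.8% and 71.5% for Gpnmb. In the thinned C1q gate they were 54.2% and 30.6% for Lpl, 63.6% and 59.6% for Trem2, and 40.5% and 41.8% for Gpnmb.

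Outside macrophages, cells were gated by markers of 1 class and fewer than 20 C1q UMIs, and 11 gates with at least 20 cells in both libraries were set against B cells as background. Basophils or mast cells, plasmacytoid dendritic cells and hepatocytes had too few. Trem2 and Gpnmb were near background in most gates. Trem2 reached 2-fold over B cells in both libraries in 1 of these gates, classical monocytes, at 116 and 106 CPM, and lay between 26.0 and 54.3 CPM in the others. Gpnmb did so in both libraries in none of them, but stood at 78.7 CPM in knockout classical monocytes, 2.30-fold over B cells (1.84 to 2.89), beside 38.1 CPM and 1.53-fold in the wild type. In macrophages of the narrower gate Trem2 was 12.4-fold and 14.2-fold over B cells, and Gpnmb 19.9-fold and 21.2-fold.

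Spp1 was highest in the bile duct cells. Cholangiocytes held 15747 CPM (15494 to 16002) and 13378 CPM (13138 to 13621), 128-fold and 112-fold over B cells. Macrophages of the narrower gate were 2.42-fold and 2.22-fold over B cells and held 8.06% and 8.52% of all Spp1 UMIs, whereas the cells under 0.3% C1q held 48.5% and 54.8%. In mesenchymal cells, the gate of stellate cells and fibroblasts, Spp1 was 499 and 148 CPM, but 78.7% of the wild-type UMIs lay in 5 cells.

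The tetraspanins were spread over many cell types. Cd9 was at least 2-fold over B cells in both libraries in 8 gates, led by neutrophils with 1454 and 1351 CPM, patrolling monocytes with 552 and 488 CPM and cholangiocytes with 641 and 455 CPM. In endothelial cells Cd9 stood at 426 CPM (408 to 444) in the wild type and 211 CPM (202 to 221) in the knockout, a log2 ratio of -1.01 (-1.10 to -0.92). Outside macrophages Cd63 was highest in mesenchymal cells, at 604 and 423 CPM, and passed 2-fold in 6 gates. Among these were migratory dendritic cells, where 58.8% of the wild-type Cd63 UMIs lay in 5 cells. Macrophages of the narrower gate stood at 105 and 122 CPM for Cd9, below each of the 3 gates named for it.

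Lpl was also high in mesenchymal cells, and Fabp5 in endothelial cells. Lpl in mesenchymal cells stood at 459.9 and 403 CPM, 15.7-fold and 23.0-fold over B cells, and otherwise passed 2-fold only in both monocyte gates, at 49.1 to 69.0 CPM. Its log2 ratio in mesenchymal cells was -0.19 (-0.33 to -0.05), and that direction turned when the gate was changed. Fabp5 in endothelial cells stood at 1346 CPM (1314 to 1378) and 468 CPM (455 to 482), a log2 ratio of -1.52 (-1.58 to -1.47). In this gate 11.3% of 3869 genes were at least 1.5-fold lower in the knockout. Thinned to 1000 UMIs, 60.0% of wild-type and 34.7% of knockout endothelial cells had a Fabp5 UMI, beside 8.71% and 8.37% of B cells. Fabp5 also passed 2-fold in migratory dendritic cells (496 and 286 CPM), cholangiocytes (340 and 266 CPM) and neutrophils (258 and 225 CPM). In the wild-type migratory dendritic cells 62.7% of the Fabp5 UMIs lay in 5 cells.

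Lgals3 was a gene of myeloid cells in general. Classical monocytes held 1640.2 and 1326 CPM, conventional type 2 dendritic cells 1172 and 925 CPM, type 1 dendritic cells 804 and 580.4 CPM, and patrolling monocytes 787 and 544 CPM. In the type 2 dendritic cells 53.1% and 40.6% of the UMIs lay in 5 cells. Over all 8 genes, 28 of 88 pairs of gene and gate were at least 2-fold over B cells in both libraries. The share of such pairs over all genes was not counted, so the counts of gates past 2-fold only describe the 8.

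Several genes leaned one way in nearly all gates outside macrophages, B cells included. Over the 11 gates with at least 50 cells in both libraries, Lpl was lower in the knockout in 11, with counting intervals below 0 in 7, and Gpnmb was higher in 10, with intervals above 0 in 7. Cd63 and Fabp5 were lower in 11, with intervals below 0 in 6 and 9. For Lpl, Gpnmb and Cd63 this was also the direction in macrophages. By summed UMIs, Fabp5 was higher in the knockout in the narrower macrophage gate (0.08, 0.05 to 0.12). After thinning, its mean in that gate was lower in the knockout, at 1.92 UMIs per wild-type and 1.76 per knockout cell. In the C1q gate its log2 ratio was -0.03 by summed UMIs and -0.18 after thinning. The direction of Fabp5 in macrophages thus depended on the gate and on how cells were weighted. The part of free RNA in these differences was not tested. How many of all genes lean one way in as many gates was not counted, so the counts of gates are description only.

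**Figure D2:**
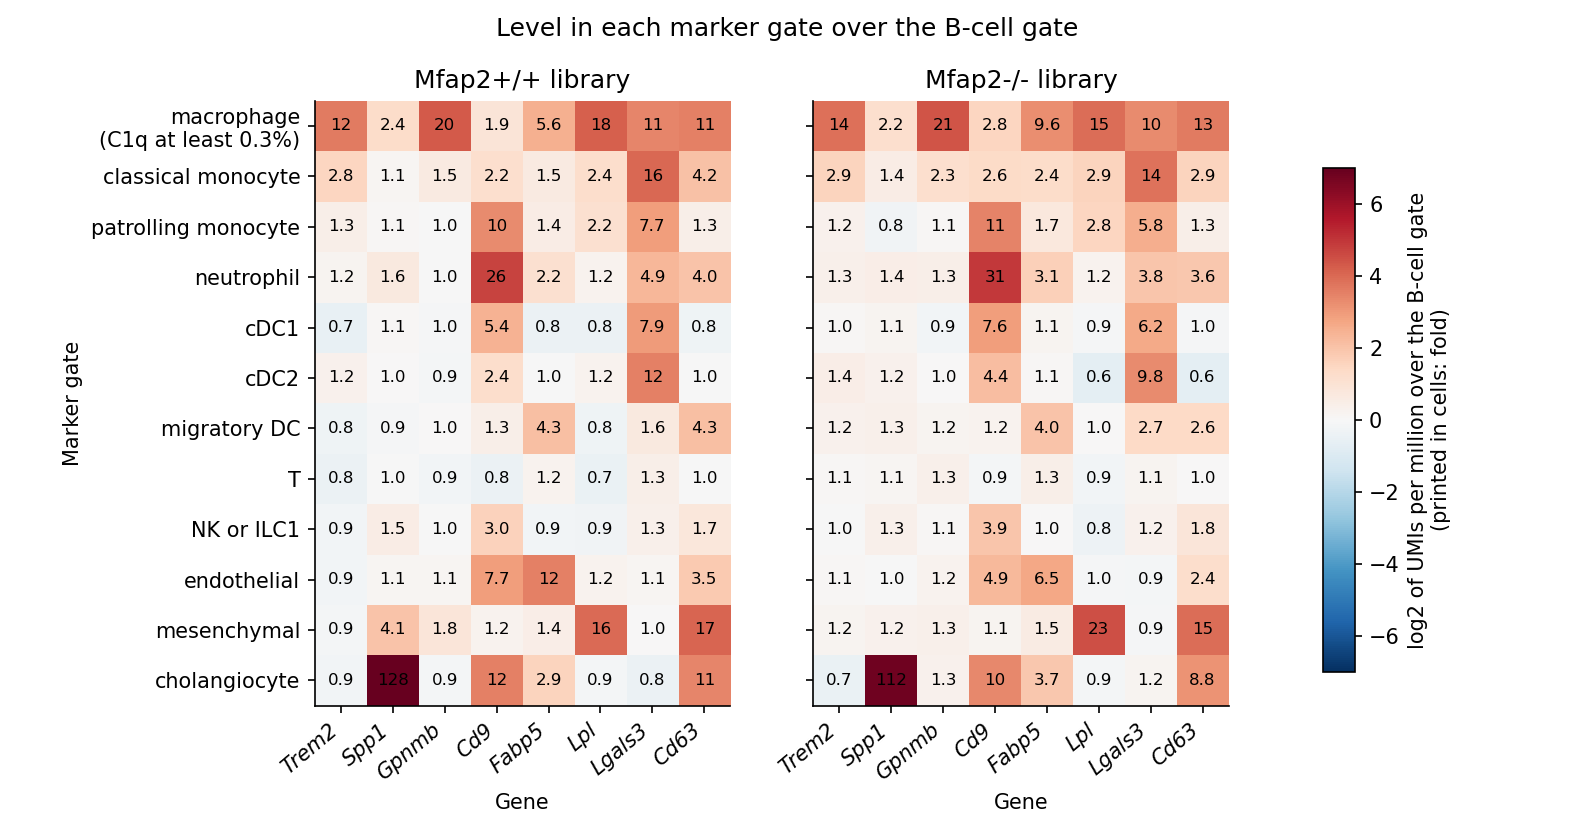
Fold of each gene over the B-cell gate, by marker gate (rows) and gene (columns), for the wild-type (left) and knockout (right) library. Colour is the log2 of the fold and the number in each cell the fold itself. Down their columns, Trem2 and Gpnmb are highest in macrophages, Spp1 in cholangiocytes (128 and 112) and Cd9 in neutrophils (26 and 31). Lpl (18 and 15), Cd63 (11 and 13) and Lgals3 (11 and 10) are also high in the macrophage row.

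Within macrophages the genes were not equally coupled. Over the 1827 wild-type and 1856 knockout cells of the narrower gate, thinned to 3000 UMIs, Pearson r of log2(UMI + 1) was computed for the 28 pairs in each library. The cells of a library share their preparation and free RNA, so r is a description without a p-value, and sparse counts keep it low. The median r was 0.19 (wild type) and 0.20 (knockout). In the C1q gate it was 0.13 and 0.15.

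Gpnmb and Fabp5 were the most strongly coupled pair, with r of 0.54 and 0.62. They were detected together in 32.5% of wild-type cells, above the 25.8% that is the product of their single shares, and in 30.1% of knockout cells, above 22.2%. Gpnmb with Cd63 gave 0.42 and 0.47, Gpnmb with Lgals3 0.40 and 0.41, and Trem2 with Gpnmb 0.40 and 0.46. Fabp5 with Cd63 gave 0.40 and 0.43, and Fabp5 with Lgals3 0.40 and 0.41. These pairs link the lysosomal glycoprotein, the fatty acid carrier, the lipid receptor, the lysosomal tetraspanin and the galectin.

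Lpl was less coupled, most of all in the wild type. Its r with Trem2 was -0.15 (wild type) and 0.03 (knockout), and with Gpnmb -0.08 and 0.09. Its mean r with the other 7 genes was -0.03 and 0.11, beside 0.31 and 0.35 for Gpnmb and 0.12 and 0.14 for Cd9. Its highest r was with Lgals3, at 0.09 and 0.21. Trem2 and Lpl were found together in 35.0% of wild-type cells, under the product of 37.9%. The difference of these values between libraries was not tested. Spp1 and Cd9 had r of 0.10 and 0.13 with each other in the narrower gate and 0.29 and 0.19 in the C1q gate, which holds the Epcam-rich cells.

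**Figure D3:**
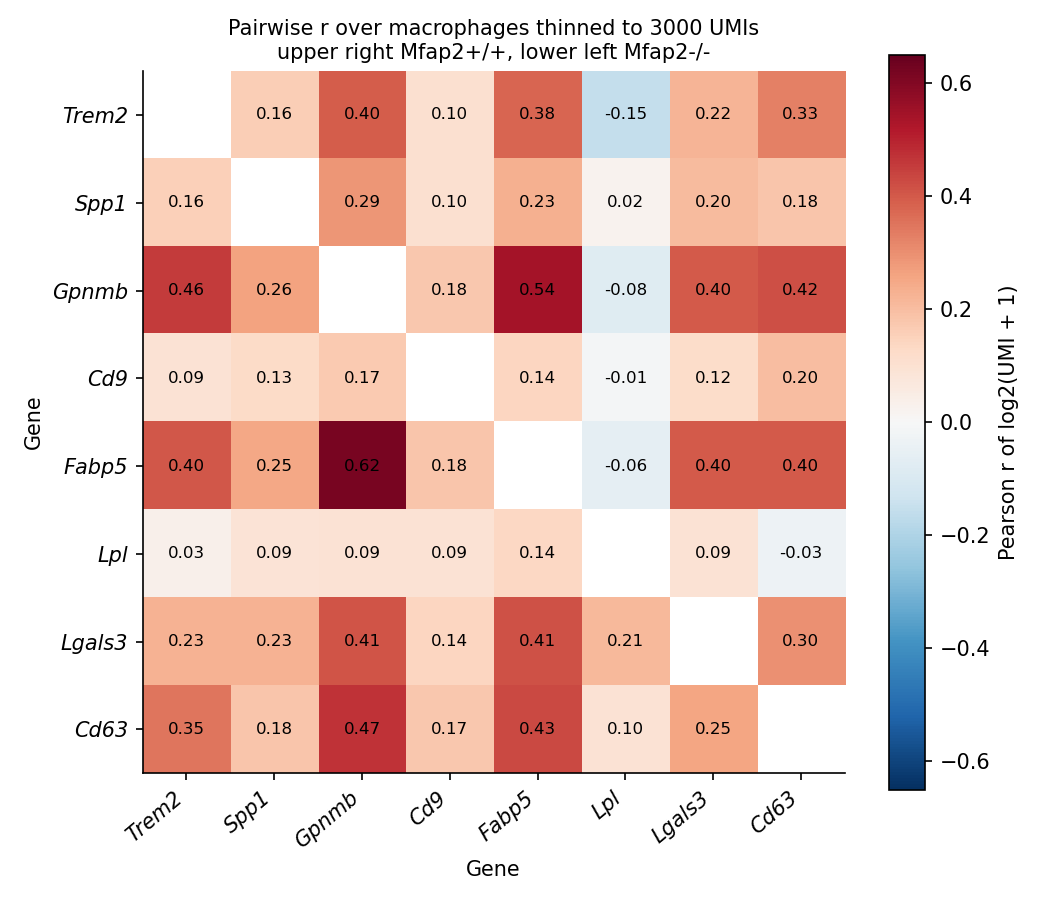
Pearson r of log2(UMI + 1) for each pair of genes over macrophages of the narrower gate thinned to 3000 UMIs, with wild-type values above the diagonal and knockout values below it. Gpnmb with Fabp5 is highest (0.54 and 0.62), and all wild-type values below 0 belong to pairs with Lpl.

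A thinned macrophage of the narrower gate held UMIs of 4.30 of the 8 genes on average in wild-type and 3.72 in knockout cells, and 4.22 and 3.64 in the C1q gate. At least 6 genes were found in 24.5% of wild-type cells, where unrelated genes with the same single shares would give 18.3%, and in 17.9% of knockout cells, where they would give 9.24%. All 8 were found in 46 wild-type cells (2.52%) and 38 knockout cells (2.05%), against 0.449% and 0.145% for unrelated genes. None of the 8 was found in 0.383% and 1.51%. Cells with few and cells with many of the genes were thus both more frequent than the product of the shares.

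**Figure D4:**
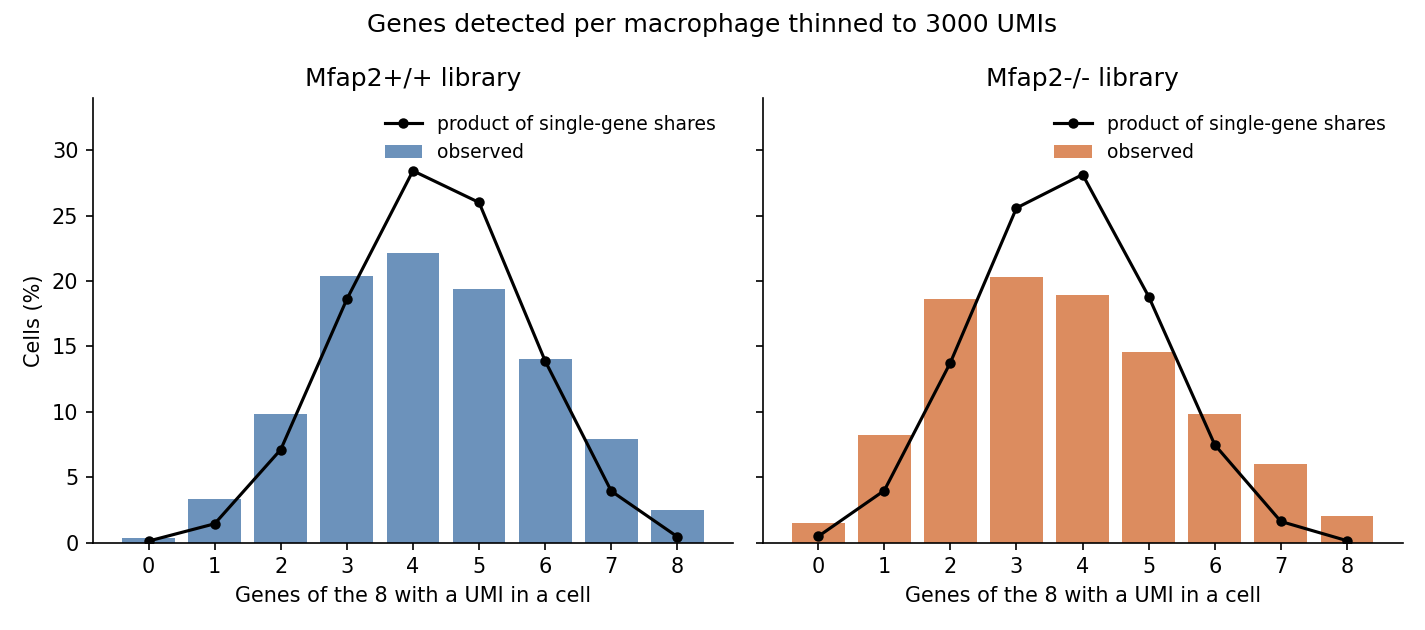
Percent of thinned macrophages of the narrower gate by the number of the 8 genes with a UMI, in each library. Bars are observed cells, and the line is what the single-gene shares give if the genes were unrelated; the bars exceed the line at 7 and 8 genes in both libraries.

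The genes whose counts were most like the summed log2 counts of the 8 were looked for in the C1q gate among 5565 genes found in at least 5% of thinned cells in both libraries. Ranked by the lower r of the libraries, they were Ctsd (0.52 and 0.64), Atp6v0d2 (0.51 and 0.46), Psap (0.39 and 0.49), Timp2, Syngr1, Cd36, Ctsb, Mmp12, Fth1 and Ctss. Ctsd, Ctsb and Ctss encode lysosomal proteases, Psap a lysosomal lipid-binding precursor and Atp6v0d2 a subunit of the proton pump that acidifies lysosomes. The least like were Hspa1b (-0.41 and -0.41), Il1b (-0.30 and -0.34), Hspa1a, Hsp90ab1 and Hsp90aa1; Il1b encodes a cytokine and the others heat-shock chaperones. In the narrower gate Capg took the place of Fth1, and Uvrag (-0.28 and -0.28), which encodes an autophagy protein, that of Hsp90ab1. Hspa1b stood at 1441 CPM in the wild type and 3165 CPM in the knockout C1q gate, a log2 ratio of 1.13. Hspa1a stood at 1469 and 2565 CPM (0.80), Hsp90ab1 at 1574 and 2614 CPM (0.73) and Hsp90aa1 at 858 and 1794 CPM (1.06). These 4 chaperones were thus at least 1.5-fold higher in the knockout, where 9.6% of genes with a mean of at least 50 CPM were. Their part in the differences of the 8 genes was not tested.

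Clec4f, a lectin of resident Kupffer cells, was used to divide the macrophages. After thinning, 481 wild-type cells (26.3%) and 343 knockout cells (18.5%) of the narrower gate had a Clec4f UMI, beside 3.37% and 5.64% of B cells. Lpl was higher in the cells with Clec4f: 793 CPM with and 397 CPM without in the wild type, a log2 ratio of 1.0 (0.89 to 1.11), and 407 and 167 CPM in the knockout (1.29, 1.11 to 1.46). The other 7 genes were lower in the cells with Clec4f in both libraries. Gpnmb stood at 328 CPM with and 581 CPM without in the wild type, and at 398 and 644 CPM in the knockout. Trem2 stood at 349 and 596 CPM in the wild type and at 337 and 498 CPM in the knockout.

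Lower Lpl in the knockout was present on both sides of this division, with log2 ratios of -0.96 (-1.13 to -0.80) in cells with Clec4f and -1.25 (-1.38 to -1.12) in cells without. Without thinning, Clec4f was found in 37.6% and 35.6% of cells, and the Lpl values were 751 and 374 CPM in the wild type and 389 and 183 CPM in the knockout. The order of Gpnmb was then lost in the knockout, with 719 CPM with and 729.9 CPM without, and Lgals3 and Cd63 turned, so the order of these genes by Clec4f depended on the thinning.

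Cells with a UMI of Atp6v0d2 or Mmp12 were set apart because both genes ranked high in likeness, so higher levels of the 8 there follow from the choice and are given as description. They were 363 wild-type cells (19.9%) and 290 knockout cells (15.6%), beside 3.37% and 1.99% of B cells. Gpnmb stood at 1252 CPM with and 332 CPM without in the wild type and at 1659.8 and 402 CPM in the knockout. Fabp5 stood at 1323 and 472 CPM, and at 1603 and 399 CPM. Lpl had the smallest log2 ratio of the 8 in the wild type, 0.51, where Trem2 had 0.66.

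**Figure D5:**
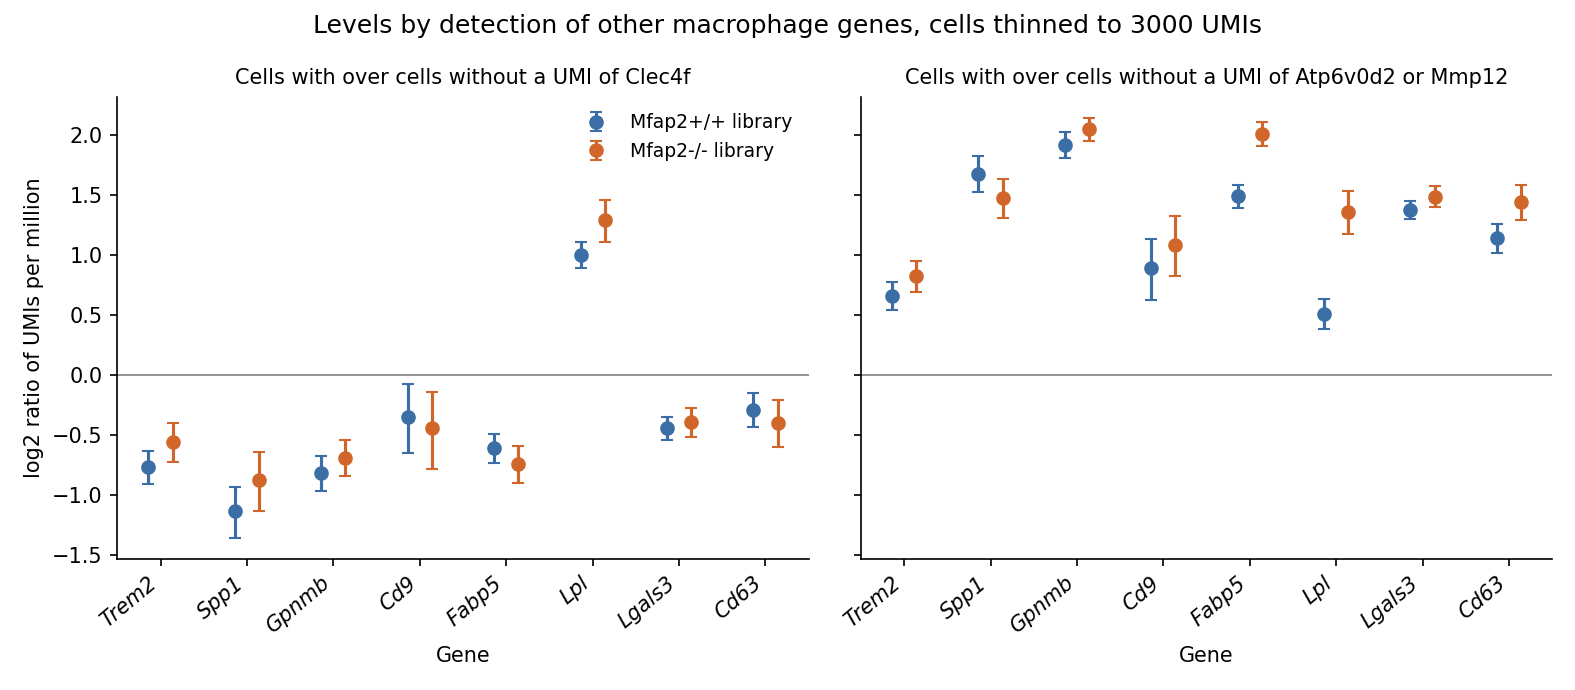
log2 ratio of CPM in macrophages with over those without a UMI of Clec4f (left) and of Atp6v0d2 or Mmp12 (right), cells of the narrower gate thinned to 3000 UMIs, with 95% counting intervals. In the Clec4f panel Lpl lies above 0 (1.0 and 1.29) and the other 7 genes below it, and in the other panel all 8 lie above 0.

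Genes that act with the 8 were taken from lists and read at 1.5-fold in the narrower gate, among members with a mean of at least 50 CPM. Over all genes of that gate with such a mean, 10% were higher and 5.26% lower by that fold. Counts of 1 or 2 in lists of this length thus carry little weight. Of the TREM2 partners and signalling genes, 7 of 8 were measured at that level: Plcg2 (63.3 to 107 CPM) and Inpp5d (150.1 to 233 CPM) were higher in the knockout, and Hcst (68.8 to 43.3 CPM) was lower. Tyrobp, the adaptor through which TREM2 signals, went from 1947 to 1612 CPM (-0.27, -0.29 to -0.25). Of 16 of 20 other lipid-associated macrophage genes, Plin2, the coat protein of lipid droplets, was higher (918 to 1646 CPM). Axl, an efferocytosis receptor (346 to 225 CPM), and Mmp14, a membrane collagenase (170.3 to 85.9 CPM), were lower, and 13 lay within 1.5-fold.

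Among the transcription factors known to act on these genes, 6 of 8 were measured: Pparg was higher (88.6 to 148 CPM) and Nr1h3, which encodes the oxysterol receptor LXR-alpha, was lower (303 to 163 CPM). Of 6 of 7 SPP1 receptors, Itga4 was higher (121 to 192 CPM), and Cd44 went from 4557 to 6057 CPM (0.41, 0.40 to 0.42). Of 2 of 5 other fatty acid-binding proteins, Fabp4 was lower (143 to 69.3 CPM). Of 4 of 9 tetraspanins, 3 of 6 galectins and 2 of 7 lipase partners, none passed 1.5-fold. The lipase partner Apoc1 lay just short of it, at 453 and 302 CPM (-0.58, -0.63 to -0.54), and at -0.33 in the C1q gate. Treml4 was the 1 of 5 TREM family genes measured, at 101 and 63.2 CPM.

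Several Kupffer identity genes also stood lower in the knockout macrophages, and their part in the Lpl difference was not tested. Of 8 of 10 Kupffer genes measured, 5 were at least 1.5-fold lower, where 5.26% of genes with a mean of at least 50 CPM were. Among the 5 were Marco (899 to 111 CPM) and Cd5l (3107 to 1396 CPM). Clec4f itself went from 254 to 221 CPM. Of the monocyte genes, 2 of 8 were measured: Plac8 was lower (376 to 202 CPM) and Ccr2 stood at 88.5 and 91.5 CPM (0.05, -0.04 to 0.13). In the C1q gate Fn1, Tspan4 and Apoc2 were also lower and Fabp1 and Ly6c2 higher by 1.5-fold, while Plac8 lay within 1.5-fold (-0.44). Hcst was lower there too (59.2 to 36.9 CPM, -0.68) but was not called, because its mean was under 50 CPM.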

How the data were processed

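The deposited matrices hold UMI counts for each gene and barcode. Their headers record Cell Ranger 7.0.1, per the file headers, while the submitters' processing notes name Cell Ranger 3.1.0, Seurat and build mm10. Which run made these counts, the strand rule and the intron rule are not given in the sources used here. Barcodes under 200 genes or over 20% mitochondrial UMIs were dropped (413 wild-type and 149 knockout). The highest Scrublet scores (scanpy 1.11.5) were removed at 0.8% per 1000 cells, 1034 and 1295 cells; the automatic threshold marked 1 and 727.

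Macrophages had at least 20 C1q UMIs; the other gates needed at least 5 UMIs of the markers of 1 class (hepatocytes, 5% of UMIs) and fewer than 20 C1q UMIs. No gate took 2777 wild-type and 2673 knockout cells. Counts were summed per gate and library. Log2 ratios (knockout over wild type) had 1 count added per sum. CPM has exact Poisson intervals, shares Clopper-Pearson intervals and ratios exact conditional intervals, all at 95%. The ratio intervals were tested on simulated Poisson counts, the model they assume, so that test does not cover spread between cells. The co-expression step was tested on simulated related and unrelated genes. The named genes were the 8, the 10 most and 5 least like them, and list genes past 1.5-fold. The genes, gates and lists were chosen with earlier results of these data known. Gene positions come from GENCODE M21, which holds 32158 of the 32285 identifiers (99.6%). Alternatives covered gate thresholds, filters, doublets, weighting, scaling and thinning depth.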

Additional observations from a re-analysis of the deposited data

How the results depend on the processing

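No paired analysis was possible because each genotype has 1 library and the results come from no test. The narrower gate (at least 20 C1q UMIs and 0.3% of UMIs) was chosen after seeing the data. For each change given here the cause was not tested.

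The median log2 ratio of the 8 genes, -0.12, became -0.24 with at least 10 C1q UMIs, 0.014 with at least 50, -0.079 with at least 0.3% C1q alone and -0.074 in the narrower gate. It was -0.34 without cells passing another lineage's gate, -0.21 as a mean of per-cell CPM, -0.21 after thinning, -0.15 without the 5 richest cells and -0.27 with median-of-ratios scaling, which shifts all genes by 0.15. The counts of genes past 1.5-fold, 0 higher and 1 lower, were the same under the 11 alternatives run for them. The 28 pairs of gene and gate, over 11 gates, became 27 without doublet removal and 23 to 26 under the 3 alternatives that left 10 gates to compare.

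The mean number of genes per cell was 3.99 (wild type) and 3.26 (knockout) with at least 10 C1q UMIs and 3.81 in the knockout with at least 50. It was 5.13 and 4.55 at 5000 UMIs, 6.30 and 6.23 without thinning, and 4.30 and 3.72 in the narrower gate. The median r was 0.20 in the wild type with at least 50 C1q UMIs, 0.38 and 0.41 without thinning, and 0.19 and 0.20 in the narrower gate. The median difference in shares, -6.89 percentage points, was -9.84 with at least 10 C1q UMIs, -4.03 with at least 50 and 0.32 without thinning, when knockout cells are deeper.

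Trem2 reversed to 0.013 with at least 0.3% C1q and 0.011 in the narrower gate, and Spp1 to 0.31 with at least 50 C1q UMIs. In mesenchymal cells Lpl reversed to 0.13 with at least 3 marker UMIs and 0.82 with fewer than 5 C1q UMIs, and Spp1 to 1.18 and 0.81. Spp1 in cholangiocytes reversed to 0.12 with at least 3 marker UMIs. Across 10 to 50 C1q UMIs Lpl stayed between -1.09 and -0.99. Thinning to 3000 UMIs leaves few counts per cell, and the Cd9 shares there (25.0% and 24.9%) stood beside 13.8% and 11.6% in B cells.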

Other observations

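Macrophages of the narrower gate were also divided by Ccr2, the chemokine receptor of recruited monocytes. After thinning, 322 wild-type cells (17.6%) and 350 knockout cells (18.9%) had a Ccr2 UMI, beside 1.84% and 2.16% of B cells. Gpnmb was lower in the cells with Ccr2, at 255 against 570.1 CPM in the wild type (log2 ratio -1.16, -1.36 to -0.97) and at 296 against 669 CPM in the knockout (-1.17, -1.35 to -1.01). Fabp5 stood at 363 against 701 CPM and at 262 against 663 CPM. Lpl stood at 316 against 541 CPM in the wild type and at 109.5 against 235 CPM in the knockout, so it was lower where Ccr2 was found and higher where Clec4f was found. Cd9 did not separate: the intervals of its log2 ratio held 0 in both libraries (0.06, -0.27 to 0.35 and -0.10, -0.40 to 0.18).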
